A study of Mus musculus with 23 samples.

Results

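The unfolded protein response of the endoplasmic reticulum (ER) was followed through 10 genes in mouse brown adipose tissue: Hspa5, Hsp90b1, Xbp1, Ern1, Atf6, Dnajb9, Sdf2l1, Pdia4, Herpud1 and Calr. They were chosen by symbol as sensors, chaperones, cochaperones, a disulfide isomerase and a degradation component of that response, and all 10 were found among the 14651 genes of the expression table. The values come from poly(A) RNA sequencing of bulk brown fat from 23 male C57BL/6 mice aged 8 to 12 weeks. Every mouse carried the floxed Mcu allele on both chromosomes (Mcu[fl/fl]). Control mice (Ctrl) had no Cre, and BAT-Mcu-KO mice (Mcu[fl/fl];Ucp1-Cre) also carried Cre recombinase driven by the Ucp1 promoter, so that Mcu, the pore of the mitochondrial calcium uniporter, was to be removed only in cells that use that promoter. Mice of each genotype were kept at room temperature (RT) or at 4°C for 6 h, giving 6 Ctrl RT, 5 Ctrl 4°C, 6 BAT-Mcu-KO RT and 6 BAT-Mcu-KO 4°C mice. Mice at 4°C were housed singly, in pre-cooled cages without bedding and in general without food. The paper describes its mice in general as group-housed at room temperature with standard chow. Whether the RT mice kept that food and housing during the 6 h is not given in the sources used here. Cold therefore cannot be told apart from any difference in food or housing.

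The unfolded protein response adjusts the ER to its load of new proteins. Its sensors sit in the ER membrane: IRE1α (the product of Ern1) splices the Xbp1 mRNA so that it encodes an active transcription factor, ATF6 is cut in the Golgi to free another, and PERK (Eif2ak3) phosphorylates eIF2α and so favours translation of ATF4. The factors of the IRE1α and ATF6 arms raise transcription of ER chaperones, folding enzymes and the machinery that returns misfolded proteins to the cytosol for degradation. Brown adipocytes produce heat by uncoupled respiration through UCP1 and enlarge their lipid and secretory programs in the cold. Read counts per gene do not separate spliced from unspliced Xbp1 and do not report the cutting of ATF6.

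Expression is given as normalized read count, meaning reads per gene divided by a size factor of the library. Libraries held 7129271 to 21006347 reads over the tested genes, and the Ctrl 4°C mouse 1 was the shallowest. Mcu ranged from 70.8 to 136 normalized counts over the 11 control mice and from 15.2 to 42.4 over the 12 BAT-Mcu-KO mice, without overlap. Ucp1 was 2.58-fold higher at 4°C in control mice and 2.78-fold higher in BAT-Mcu-KO mice (limma, adjusted p = 1.0e-10 and 1.3e-11). Summed brown adipocyte markers lay between 196400 and 343000 normalized counts over the 23 mice, of which Ucp1 gave 50590 to 198043. Of these 10 markers 4 were higher and 5 lower in the cold in control mice, with 3 higher and 2 lower in BAT-Mcu-KO mice. Summed skeletal muscle markers varied from 285 to 61230 within and across groups, with 0 of 10 muscle genes called by cold or genotype. Because the tissue is bulk, fewer cells of a type and less RNA per cell cannot be told apart.

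ER stress response elements (ERSE) are the promoter sequences through which ATF6 and XBP1, together with NF-Y at the CCAAT part, act on chaperone genes. The promoter windows below, of 300 bases from 250 before to 50 after the annotated start, are shown for the 4 members with an exact element, with its letters in capitals. They are read on the gene's strand from RefSeq (GRCm38.p6), at chr2:34771840-34772139 (Hspa5, plus strand), chr10:86705395-86705694 (Hsp90b1, minus strand), chr8:84846882-84847181 (Calr, minus strand) and chr8:94386179-94386478 (Herpud1, plus strand).
Hspa5: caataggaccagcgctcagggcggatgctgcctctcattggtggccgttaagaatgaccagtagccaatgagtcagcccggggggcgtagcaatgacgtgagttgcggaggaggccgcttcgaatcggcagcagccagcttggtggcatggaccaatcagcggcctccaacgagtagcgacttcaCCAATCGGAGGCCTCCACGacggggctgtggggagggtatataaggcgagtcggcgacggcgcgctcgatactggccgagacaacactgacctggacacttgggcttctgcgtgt
Hsp90b1: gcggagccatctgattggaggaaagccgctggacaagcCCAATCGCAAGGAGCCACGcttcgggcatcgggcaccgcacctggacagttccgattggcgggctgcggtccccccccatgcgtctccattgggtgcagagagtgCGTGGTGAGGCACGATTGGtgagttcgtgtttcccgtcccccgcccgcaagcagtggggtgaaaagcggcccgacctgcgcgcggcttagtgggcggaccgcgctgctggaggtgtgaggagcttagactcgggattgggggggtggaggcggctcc
Calr: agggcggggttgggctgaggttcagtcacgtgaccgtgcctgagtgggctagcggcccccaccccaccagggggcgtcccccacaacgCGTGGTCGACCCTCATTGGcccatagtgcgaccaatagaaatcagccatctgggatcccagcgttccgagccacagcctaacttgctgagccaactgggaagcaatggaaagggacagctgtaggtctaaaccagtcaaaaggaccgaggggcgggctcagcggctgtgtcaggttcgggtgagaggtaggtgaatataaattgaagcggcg
Herpud1: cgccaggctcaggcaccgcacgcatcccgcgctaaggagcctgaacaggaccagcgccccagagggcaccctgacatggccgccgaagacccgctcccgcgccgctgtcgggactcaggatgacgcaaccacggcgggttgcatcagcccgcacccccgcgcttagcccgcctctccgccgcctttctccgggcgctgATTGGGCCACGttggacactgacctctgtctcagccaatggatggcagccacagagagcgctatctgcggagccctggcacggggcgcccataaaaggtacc
The ERSE searched was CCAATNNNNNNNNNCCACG on either strand, and the shorter ERSE-II was ATTGGNCCACG on either strand. Hspa5 held 1 ERSE from 65 to 47 bases before its RefSeq start, Hsp90b1 held 2 in opposite orientations, and Calr held 1 in reverse orientation. Herpud1 held the ERSE-II from 52 to 42 bases before its RefSeq start. RefSeq starts can differ from the GENCODE gene positions given below. The GENCODE span of Hspa5 begins at chr2:34771970, so its element at chr2:34772025-34772043 lies inside that span. Of all 32851 promoter windows in the table, 39 (0.119%) held an ERSE and 12 (0.0365%) an ERSE-II. RefSeq windows were found for 9 of the 10 members, and none was found for Atf6.

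The windows of Dnajb9 (chr12:44210019-44210318, minus strand) and Pdia4 (chr6:47813463-47813762, minus strand) are shown because these members moved in opposite directions at 4°C, as described below, and neither holds an exact element.
Dnajb9: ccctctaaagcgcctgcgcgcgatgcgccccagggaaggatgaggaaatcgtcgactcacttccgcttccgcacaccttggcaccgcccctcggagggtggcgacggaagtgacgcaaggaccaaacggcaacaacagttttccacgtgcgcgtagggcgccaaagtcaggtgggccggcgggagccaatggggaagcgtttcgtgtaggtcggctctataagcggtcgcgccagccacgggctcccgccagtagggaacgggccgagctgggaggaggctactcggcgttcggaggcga
Pdia4: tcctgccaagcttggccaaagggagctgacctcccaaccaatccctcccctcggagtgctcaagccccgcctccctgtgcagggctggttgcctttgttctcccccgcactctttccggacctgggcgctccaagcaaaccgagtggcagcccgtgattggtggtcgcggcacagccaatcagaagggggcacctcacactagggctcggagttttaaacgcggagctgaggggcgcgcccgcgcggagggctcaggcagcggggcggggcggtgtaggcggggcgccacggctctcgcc
Xbp1, Ern1 and Sdf2l1 also had a window without either element. Absence of a match says only that these letters are not in this window. The Dnajb9 window lies wholly inside the GENCODE span of that gene (chr12:44205559-44210326), so bases before the GENCODE start were not searched.

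At 4°C, control brown fat carried higher levels of the cochaperones Dnajb9 and Sdf2l1, the sensor Atf6 and the chaperones Hspa5 and Hsp90b1, and a lower level of the disulfide isomerase Pdia4. In control mice, 5 members were higher and 1 was lower at 4°C (limma, adjusted p under 0.05), against 22.3% of all tested genes called higher and 23.7% called lower. In BAT-Mcu-KO mice, 7 were higher and 1 was lower, against 21.4% and 21.9% of all genes. A fit of only the 9531 genes with a mean of 50 or more normalized counts called 2856 higher and 2566 lower in control mice. The same filter gave 2705 higher and 2365 lower in BAT-Mcu-KO mice. The median log2 fold change of the 10 members was 0.42 in control mice, and BAT-Mcu-KO mice gave 0.59, where the median of all genes was -0.02 in each. Cold and RT mice did not overlap for 4 members that were higher and 1 that was lower in control mice, where 13.0% and 12.3% of all genes showed such a separation. In BAT-Mcu-KO mice this held for 6 higher and 1 lower member, with 12.4% and 11.9% over all genes. The members were chosen with earlier results of these data known, so these counts and medians are a description and not a test. Apart from the sparse Sdf2l1, the members in control mice ranged from a 3.57-fold rise of Dnajb9 to a fall of Pdia4 to 0.451 of its RT level.

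**Figure D1:**
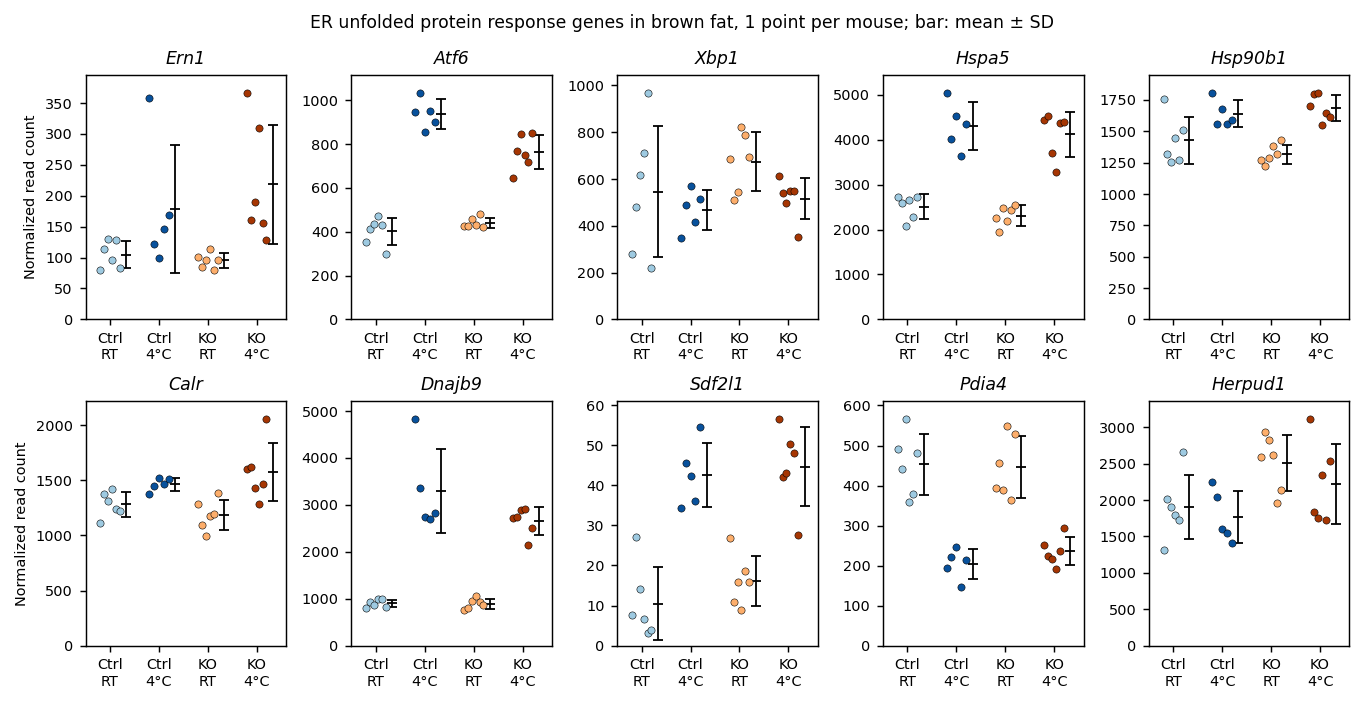
Normalized read count (vertical axis, from 0) of each of the 10 genes in each mouse of the 4 groups (horizontal axis; Ctrl, control; KO, BAT-Mcu-KO), with mean ± SD beside the points. Dnajb9 points at 4°C lie between 2137 and 4830, all above the RT points, and Pdia4 points at 4°C lie between 145 and 294, all below the RT points.

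Among the sensors and transcription factors, Atf6 separated the temperatures completely. Atf6 (chr1:170704674-170867771, GRCm38, minus strand) had 300 to 472 normalized counts with a median of 423 in Ctrl RT mice, and 949, 1035, 854, 951 and 899 in the 5 Ctrl 4°C mice. In BAT-Mcu-KO mice it had 419 to 480 (median 429) at RT and 643 to 849 (median 759) at 4°C. Every mouse at 4°C was thus above every mouse at RT. The rise was 2.35-fold in control mice (log2 fold change 1.23, SE 0.10, limma adjusted p = 3.2e-10) and 1.72-fold in the BAT-Mcu-KO ones (log2 0.79, SE 0.10, adjusted p = 2.8e-07).

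Ern1, which encodes IRE1α (chr11:106394650-106487852, minus strand), was more uneven among mice in the cold. It had 79.8 to 129 normalized counts (median 105) in Ctrl RT mice and 358, 121, 99.6, 146 and 168 in Ctrl 4°C mice. It had 79.9 to 114 (median 96.3) in BAT-Mcu-KO RT mice and 128 to 367 (median 175) in BAT-Mcu-KO 4°C mice. The control groups overlapped, with Ctrl 4°C mouse 1 far above the others, whereas the BAT-Mcu-KO groups did not. Ern1 rose in BAT-Mcu-KO mice (log2 fold change 1.09, SE 0.25, limma adjusted p = 0.0010). In control mice the value was 0.64 (SE 0.26) and just missed the threshold (adjusted p = 0.051), although edgeR and DESeq2 on recovered reads called it (0.74 and 0.76, adjusted p = 0.030 and 0.014). Without Ctrl 4°C mouse 1 it was 0.35 (limma adjusted p = 0.23), and without Ctrl RT mouse 3 or 5 or Ctrl 4°C mouse 2 or 3 it passed (0.70 to 0.81, adjusted p = 0.018 to 0.044).

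Xbp1, the transcription factor gene whose mRNA IRE1α splices (chr11:5520659-5525893, plus strand), did not separate by temperature. It spread from 220 to 969 normalized counts (median 550) in Ctrl RT mice, and had 346, 490, 569, 418 and 516 in Ctrl 4°C mice. In BAT-Mcu-KO mice, RT values lay between 512 and 822 with a median of 690, and 4°C values between 352 and 612 with a median of 543. The Ctrl RT mice alone covered the full range of the Ctrl 4°C mice. The log2 fold change was -0.07 (SE 0.26) in control and -0.38 (SE 0.25) in BAT-Mcu-KO mice (limma, adjusted p = 0.85 and 0.22), with 95% intervals from -0.60 to 0.47 and from -0.89 to 0.13. In a fit of the BAT-Mcu-KO groups alone the fall passed the threshold (-0.38, adjusted p = 0.037).

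Among the chaperones, Hspa5 (chr2:34771970-34777547, plus strand) rose most. Its product BiP, the main HSP70 of the ER, binds unfolded chains and holds the sensors inactive. It had 2070 to 2735 normalized counts (median 2625) in Ctrl RT mice and 5051, 4020, 4538, 3635 and 4352 in Ctrl 4°C mice. In BAT-Mcu-KO mice it had 1938 to 2556 (median 2353) at RT and 3275 to 4536 (median 4388) at 4°C. No mouse at 4°C overlapped the RT mice of either genotype. The rise was 1.72-fold in control (log2 fold change 0.78, SE 0.10, limma adjusted p = 7.8e-07) and 1.78-fold in the BAT-Mcu-KO ones (log2 0.83, SE 0.10, adjusted p = 1.6e-07).

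Hsp90b1 encodes GRP94, the HSP90 of the ER (chr10:86690209-86705509, minus strand), and its changes were small. It had 1254 to 1758 normalized counts (median 1383) in Ctrl RT mice and 1808, 1556, 1681, 1559 and 1594 in Ctrl 4°C mice, which overlap. In BAT-Mcu-KO mice, 1225 to 1429 (median 1304) at RT gave way to 1551 to 1804 (median 1677) at 4°C without overlap. The log2 fold change was 0.35 (SE 0.08, limma adjusted p = 5.6e-04) in BAT-Mcu-KO and 0.21 (SE 0.08, adjusted p = 0.038) in control mice. The control call was lost under quantile normalization (0.02, adjusted p = 0.82), under scaling to the 75th percentile (0.10, 0.35), in edgeR (0.20, 0.056), without the variance trend (0.056) and in a fit of the control groups alone (0.11). It was also lost without Ctrl RT mouse 2, 3 or 5 or Ctrl 4°C mouse 1 or 3 (0.17 to 0.20, limma adjusted p = 0.073 to 0.10). Exons of 3 other annotated genes overlap those of Hsp90b1, the longest overlap being 415 bases with 1810014B01Rik on the other strand, and reads were counted without regard to strand.

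Calr (chr8:84841850-84846934, minus strand) encodes calreticulin, a calcium-binding lectin that helps glycoproteins to fold. It had 1117 to 1424 normalized counts (median 1276) in Ctrl RT mice and 1378, 1446, 1522, 1470 and 1512 in Ctrl 4°C mice. It had 999 to 1381 (median 1187) in BAT-Mcu-KO RT mice and 1285 to 2056 (median 1537) in BAT-Mcu-KO 4°C mice. The groups overlapped in each genotype. Calr rose in BAT-Mcu-KO mice (log2 fold change 0.40, SE 0.09, limma adjusted p = 0.0013). In control mice it was 0.20 (SE 0.10, adjusted p = 0.11).

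The cochaperones had larger log2 fold changes than the chaperones. Dnajb9 (chr12:44205559-44210326, minus strand) encodes ERdj4, a J-domain partner of BiP that returns IRE1α to its inactive state. It had 795 to 996 normalized counts (median 899) in Ctrl RT mice and 4830, 3361, 2745, 2696 and 2823 in Ctrl 4°C mice. BAT-Mcu-KO mice had 765 to 1059 (median 903) at RT and 2137 to 2921 (median 2731) at 4°C. The groups lay far apart in each genotype, and the highest value came from Ctrl 4°C mouse 1, the mouse that also had the highest control Ern1. The rise was 3.57-fold in control (log2 fold change 1.84, SE 0.12, limma adjusted p = 1.4e-11) and 2.96-fold in the BAT-Mcu-KO ones (log2 1.57, SE 0.12, adjusted p = 9.0e-11).

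Sdf2l1, an ER-resident partner of J-domain proteins (chr16:17130138-17132383, minus strand), was sparse at RT. It had 3.11 to 27.2 normalized counts (median 7.06) in Ctrl RT mice, with as few as 3 reads in a library, and 34.4, 45.5, 42.3, 36.0 and 54.5 in Ctrl 4°C mice. It had 8.96 to 26.8 (median 15.9) in BAT-Mcu-KO RT mice and 27.5 to 56.5 (median 45.6) in BAT-Mcu-KO 4°C mice. The temperatures did not overlap in either genotype, although in BAT-Mcu-KO mice the nearest values were close together. The log2 fold change was 2.24 (SE 0.37, limma adjusted p = 1.8e-05) in control mice. The BAT-Mcu-KO value was 1.46 (SE 0.35, limma adjusted p = 0.0014). The ratio of group means was 4.08 in control mice. At these low counts the log2 values depend on the pseudocount, and with a pseudocount of 10 the control value was 1.45, still past the threshold.

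Pdia4 (chr6:47796141-47813430, minus strand), which encodes the disulfide isomerase ERp72, was the member that fell. It had 360 to 566 normalized counts (median 462) in Ctrl RT mice and 194, 222, 248, 145 and 213 in Ctrl 4°C mice. It had 363 to 548 (median 426) in BAT-Mcu-KO RT mice and 191 to 294 (median 231) in BAT-Mcu-KO 4°C mice. Every mouse at 4°C was below every mouse at RT. Pdia4 had a log2 fold change of -1.15 (SE 0.14, limma adjusted p = 4.1e-07) in control mice. The BAT-Mcu-KO value was -0.92 (SE 0.14, limma adjusted p = 6.0e-06).

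Herpud1 (chr8:94386438-94395377, plus strand) encodes an ER membrane protein that organizes the complex for ER-associated degradation. It had 1320 to 2661 normalized counts (median 1847) in Ctrl RT mice and 2255, 2037, 1605, 1543 and 1410 in Ctrl 4°C mice. It had 1960 to 2938 (median 2606) in BAT-Mcu-KO RT mice and 1726 to 3115 (median 2090) in BAT-Mcu-KO 4°C mice. Temperatures overlapped in each genotype, and neither log2 fold change passed the threshold (-0.10, SE 0.17, and -0.20, SE 0.16, limma adjusted p = 0.67 and 0.33). Under quantile normalization the BAT-Mcu-KO value reached -0.36 (adjusted p = 0.046).

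**Figure D2:**
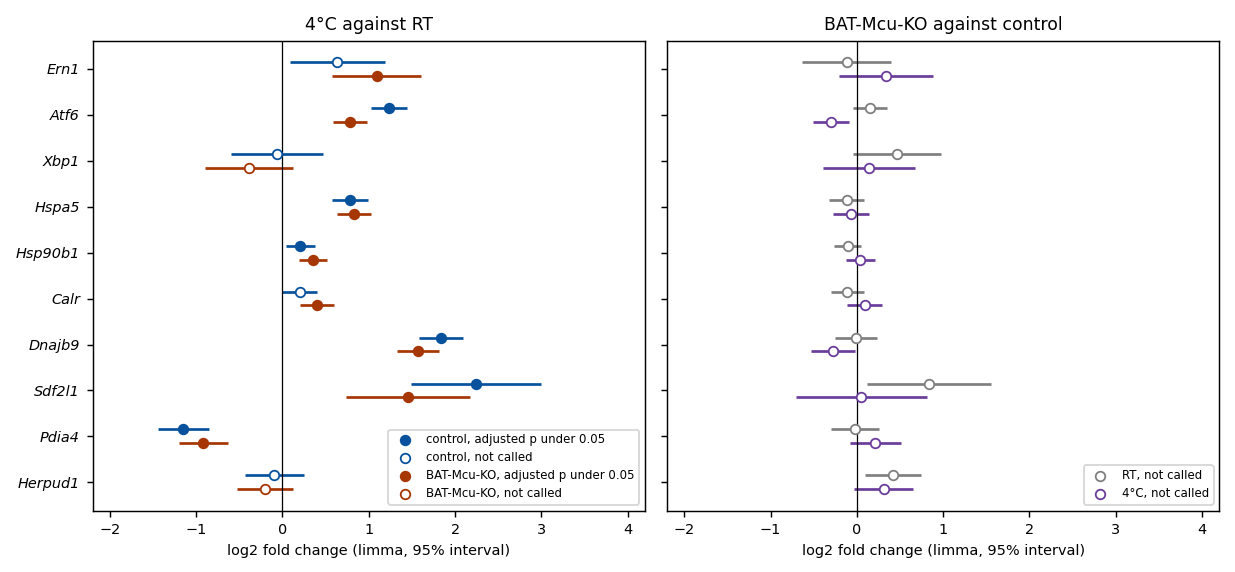
Log2 fold change (horizontal axes, points) with its 95% interval (lines) for each gene (vertical axis), for 4°C against RT in each genotype (left) and for BAT-Mcu-KO against control at each temperature (right). Filled points have an adjusted p under 0.05: on the left 6 for control and 8 for BAT-Mcu-KO mice, and on the right 0.

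The order of levels also changed with temperature. Levels between genes are compared as normalized counts per kilobase of merged exon. In Ctrl RT mice Herpud1 stood first with 815 ± 189 per kb (SD, n = 6), followed by Hspa5 with 594 ± 64.3 and Calr with 445 ± 38.9. Hsp90b1 (354 ± 47.3) and Dnajb9 (353 ± 32.7) could not be ordered, since Hsp90b1 was the higher in only 2 of 6 mice. Pdia4 (189 ± 31.9) and Xbp1 (168 ± 86.4) overlapped as well. Atf6 (43.5 ± 6.82) stood below them, and Ern1 (12.8 ± 2.70) and Sdf2l1 (9.40 ± 8.19) were the lowest, with overlapping ranges.

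In Ctrl 4°C mice Dnajb9 stood first with 1291 ± 353 per kb (SD, n = 5) and was above Hspa5 (1021 ± 126) in 5 of 5 mice, although their ranges overlapped. Herpud1 (759 ± 154) came next, below Hspa5 in 5 of 5 mice. In BAT-Mcu-KO mice Herpud1 stood first at RT (1077 ± 164), above Hspa5 (547 ± 54.5) in 6 of 6 mice. At 4°C the BAT-Mcu-KO levels of Dnajb9 (1041 ± 115), Hspa5 (974 ± 121) and Herpud1 (951 ± 237) overlapped, and Hspa5 was above Herpud1 in 3 of 6 mice. Pdia4 fell from above Atf6 at RT in each genotype to a range that overlapped that of Atf6 (85.2 ± 15.9 and 102 ± 7.33 in Ctrl 4°C mice).

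**Figure D3:**
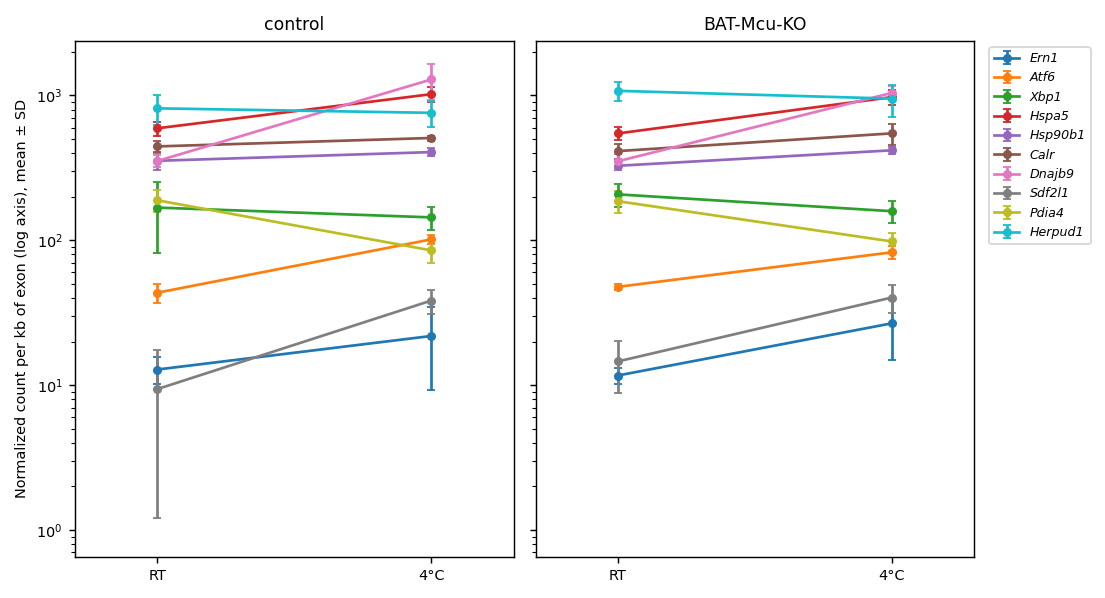
Mean normalized count per kilobase of merged exon (vertical axis, log scale; bars, SD over mice) of the 10 genes at RT and 4°C (horizontal axis) in control (left) and BAT-Mcu-KO mice (right). Dnajb9 moves from 353 to 1291 per kb in control mice to become the highest, and Pdia4 falls from 189 to 85.2.

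Loss of Mcu changed none of the 10 members past the threshold. At RT, 0 of 10 were called between BAT-Mcu-KO and control mice (limma), against 0.0478% of all genes, and 2 had an unadjusted p under 0.05, against 5.15% of all genes. These were Herpud1 (log2 fold change 0.42, SE 0.16) and Sdf2l1 (0.84, SE 0.35), each with an adjusted p of 0.94 in limma. The 95% intervals at RT ran from 0.09 to 0.74 for Herpud1 and from -0.32 to 0.08 for Hspa5. edgeR and DESeq2 also called 0 members at RT.

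At 4°C, 0 of 10 were called between genotypes, against 0.0751% of all genes, and 2 had an unadjusted p under 0.05 in limma, against 6.98%. For Atf6 the genotypes did not overlap (643 to 849 normalized counts in the 6 BAT-Mcu-KO and 854 to 1035 in the 5 control mice), a separation found in that direction for 0.293% of all genes. The log2 fold change of Atf6 was -0.30 (SE 0.10, limma adjusted p = 0.53). Dnajb9 had -0.28 (SE 0.12, limma adjusted p = 0.68), with 2 of 6 BAT-Mcu-KO mice below every control mouse. The interval for Hspa5 ran from -0.28 to 0.14 and that for Hsp90b1 from -0.13 to 0.21.

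Whether the cold change itself differed between genotypes was tested by the interaction. Of the 10 members 0 were called, as were 0 of 14651 genes (limma and edgeR; DESeq2 called 28 genes, none of them a member), and 1 member, Atf6, was among the 5.99% of genes with an unadjusted p under 0.05. The rise of Atf6 was smaller by 0.45 on the log2 scale in BAT-Mcu-KO mice (interaction -0.45, SE 0.14, limma adjusted p = 0.74). For Ern1, called in BAT-Mcu-KO but not in control mice, the difference was 0.45 with an interval from -0.30 to 1.21 (adjusted p = 0.89). For Calr it was 0.20, from -0.08 to 0.48 (adjusted p = 0.87), so neither was shown to differ between genotypes.

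The wider ER stress network moved in mixed directions in the cold. Of 117 further genes in 6 lists, 113 were measured. At 4°C, 39 of these were higher and 21 lower in control mice, while the BAT-Mcu-KO groups gave 34 higher and 20 lower, with medians of 0.08 and 0.06 on the log2 scale. The shares called, 60 of 113 and 54 of 113, stand against 46.0% and 43.3% of all genes. Larger shares were called among the 9531 genes with a mean of 50 or more normalized counts. Those were 2856 higher and 2566 lower in control mice, and 2705 and 2365 in BAT-Mcu-KO mice. The shares of the lists are therefore not read as an excess over genes of like expression. Some marker lists of other cell types also moved with cold, and others did not. In control mice 0 of 7 fibroblast and 0 of 5 erythroid genes were called. In BAT-Mcu-KO mice 1 fibroblast gene was higher, and 0 erythroid genes were called. Endothelial genes were higher for 4 of 8 and lower for 2 in control mice (summed counts of 5125 to 7108 at RT and 7571 to 11670 at 4°C). The BAT-Mcu-KO groups had 4 higher and 1 lower (5350 to 6974 and 7099 to 9733). Macrophage genes were higher for 3 of 9 in control mice (882 to 1262 and 1022 to 1637) and for 5 of 9 in BAT-Mcu-KO mice (732 to 1297 and 1273 to 1747). Of 6 Schwann cell genes 1 was higher and 1 lower in control mice, with sums that did not overlap (1707 to 3130 and 3616 to 4466), and 1 was higher and 2 lower in BAT-Mcu-KO mice (2069 to 2646 and 3411 to 4624). Of 4 white adipocyte genes 2 were lower in each genotype, with sums of 717 to 1392 and 360 to 583 in control and 726 to 1950 and 463 to 848 in BAT-Mcu-KO mice. Sox10 and Lep were at 0 in at least 1 mouse, and no endothelial or macrophage marker was. Of all genes, 22.3% were called higher and 23.7% lower in control mice, as given above. The part of these cell types in the changes was not tested.

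The list named for the PERK and ATF4 arm rose most, with 9 of 11 genes higher and 1 lower in control mice (median 1.48). In BAT-Mcu-KO mice 7 were higher and 1 lower (median 0.78). The shares of all genes were 22.3% higher and 23.7% lower in control mice, and 21.4% and 21.9% in BAT-Mcu-KO mice. Like the members, the list was chosen with earlier results of these data known, so its counts are a description and not a test. This list does not include Eif2ak3, the PERK gene, and the paper describes more than 1 kinase that phosphorylates eIF2α. Which kinase acted was not tested. Atf4, the transcription factor gene of the list, had 536 to 695 normalized counts (median 620) in Ctrl RT mice and 2978, 3015, 2769, 3071 and 3128 in Ctrl 4°C mice. In BAT-Mcu-KO mice it had 455 to 585 (median 512) at RT and 1417 to 2218 (median 2069) at 4°C. Its cold rise was 4.92-fold in control and 3.69-fold in BAT-Mcu-KO mice (limma, adjusted p = 3.9e-14 and 5.9e-13). Atf3 (log2 fold change 5.49 and 3.78 in control and BAT-Mcu-KO mice), another stress-induced transcription factor, and Ppp1r15a (2.08 and 2.36), the phosphatase subunit GADD34 that reverses eIF2α phosphorylation, rose in each genotype. Nupr1, a stress-responsive nuclear protein gene, was lower (-0.59 and -0.95).

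Atf4 was the 1 gene of these lists called between genotypes at 4°C, with a log2 fold change of -0.66 in BAT-Mcu-KO against control mice (SE 0.11, limma adjusted p = 0.015) and 6 of 6 mice below every control mouse. That call was lost in a fit of the compared groups alone (limma adjusted p = 0.24) and with a replicate block (limma adjusted p = 0.058). Ddit3, which encodes CHOP, was not called in the cold (0.15, SE 0.17, and -0.23, SE 0.16, limma adjusted p = 0.47 and 0.25). Ddit3 had 119 to 183 normalized counts in Ctrl RT, 136, 226, 157, 153 and 221 in Ctrl 4°C, 131 to 157 in BAT-Mcu-KO RT and 91.5 to 191 in BAT-Mcu-KO 4°C mice, all groups overlapping.

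Among other sensors and transcription factors, 3 of 9 were higher and 3 lower in control mice, and 1 was higher and 2 lower in BAT-Mcu-KO mice. For all genes the shares were 22.3% and 23.7% in control mice, and 21.4% and 21.9% in BAT-Mcu-KO mice. Creb3, a membrane-bound factor related to ATF6, rose (log2 fold change 0.69 in control mice, 0.97 in BAT-Mcu-KO). Eif2ak3, the PERK gene, rose in control mice (0.64, SE 0.19, limma adjusted p = 0.0076) and, in the BAT-Mcu-KO groups, had 0.33 (SE 0.18, adjusted p = 0.14), with an interaction of -0.30 (adjusted p = 0.89). Eif2ak3 had 40.3 to 72.5 normalized counts in Ctrl RT mice and 82.9, 102, 66.0, 104 and 82.6 in Ctrl 4°C mice. The proteases that cut ATF6 differed, with Mbtps2 higher (0.47) and Mbtps1 lower (-0.34) in control mice, and neither called in BAT-Mcu-KO mice (0.11 and -0.14), where Mbtps1 passed under quantile normalization (-0.23, limma adjusted p = 0.031). Creb3l2 (-0.39 and -0.44) and Tmbim6 (-0.18 and -0.18), an ER membrane protein, were lower in each genotype. Tmbim6 lost its call in 8 of 11 control and 10 of 12 BAT-Mcu-KO fits that left out 1 mouse.

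Of 23 further chaperones and cochaperones, 6 were higher and 5 lower in control mice, and 6 were higher and 3 lower in BAT-Mcu-KO mice. The shares of all genes were 22.3% higher and 23.7% lower in control mice, and 21.4% and 21.9% in BAT-Mcu-KO mice. Manf, a secreted ER stress protein, rose (log2 fold change 1.21 in control mice, 1.38 in BAT-Mcu-KO), while its paralog Cdnf fell (-2.13 and -1.55). Canx, the membrane lectin that works beside calreticulin, rose (0.41 and 0.37). Dnajb11, another J-domain partner of BiP, rose in control mice (1.41, SE 0.34, limma adjusted p = 0.0014) and had 0.75 (adjusted p = 0.066) in BAT-Mcu-KO mice, where it passed without RT mouse 1 (1.04, 0.0056) or 4°C mouse 6 (0.93, 0.024). Sil1, a nucleotide exchange factor of BiP, was lower (-0.57 and -0.41). Fkbp7, an ER prolyl isomerase, was lower in control mice (-0.61) and had -0.28 (limma adjusted p = 0.066) in BAT-Mcu-KO mice, where it passed without RT mouse 1 (-0.32, 0.046), under quantile normalization (-0.31, 0.0498), under 75th percentile scaling (-0.33, 0.032) and in a fit of those groups alone (-0.28, 0.0496).

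Pdia4 was not the only disulfide isomerase to fall. Of 17 other genes for disulfide isomerases and ER oxidation, 5 were higher and 3 lower in control mice, and 6 were higher and 4 lower in BAT-Mcu-KO mice. Over all genes, 22.3% were higher and 23.7% lower in control mice, with 21.4% and 21.9% in BAT-Mcu-KO mice. Pdia6 (log2 fold change -0.80 in control mice, -0.68 in BAT-Mcu-KO) and Pdia5 (-1.82 and -1.84) fell in each. Tmx4, a membrane thioredoxin (1.93 and 1.62), Qsox1, a sulfhydryl oxidase (1.01 and 0.84), and Ero1l, the oxidase that recharges disulfide isomerases (1.21 and 0.88), rose in each. Prdx4, an ER peroxiredoxin, was lower in control mice (-0.42, SE 0.12, limma adjusted p = 0.0042). In BAT-Mcu-KO mice Prdx4 had 0.01 (SE 0.11), and the sign of that value turned under quantile normalization (-0.0064), 75th percentile scaling (-0.038) and edgeR (-0.0041).

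Around Herpud1, 12 of 26 other genes of ER-associated degradation were higher and 4 lower in control mice, and 10 were higher and 5 lower in BAT-Mcu-KO mice. All genes gave 22.3% higher and 23.7% lower in control mice, and 21.4% and 21.9% in BAT-Mcu-KO mice. Degradation genes that were higher included the p97-binding Ubxn4 (log2 fold change 1.25 and 1.11), the ubiquitin-conjugating enzyme Ube2g2 (0.69 and 0.54) and Nploc4, a cofactor of the p97 segregase (0.80 and 0.89). The mannosidase-like Edem2 (-0.91 and -0.71) and Edem1 (-0.79 and -0.68), which mark misfolded glycoproteins, and the p97-interacting Svip (-0.66 and -0.57) were lower. Of 27 genes for translocation, signal peptide removal and ER export, 4 were higher and 5 lower in each genotype, smaller shares than over all genes. The COPII coat genes Sec24d (1.04 and 1.03) and Sec31a (0.53 and 0.33) and the translocation gene Sec62 (0.31 and 0.39) rose, and the translocon gene Sec61b (-0.60 and -0.37), the cargo receptor gene Mcfd2 (-0.46 and -0.39) and Wfs1 (-0.55 and -0.57), which encodes the ER membrane protein wolframin, fell. Sec62 lost its control call under quantile normalization (0.17, limma adjusted p = 0.11) and 75th percentile scaling (0.20, 0.058), and Sec31a its BAT-Mcu-KO call under quantile normalization (0.20, 0.092).

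**Figure D4:**
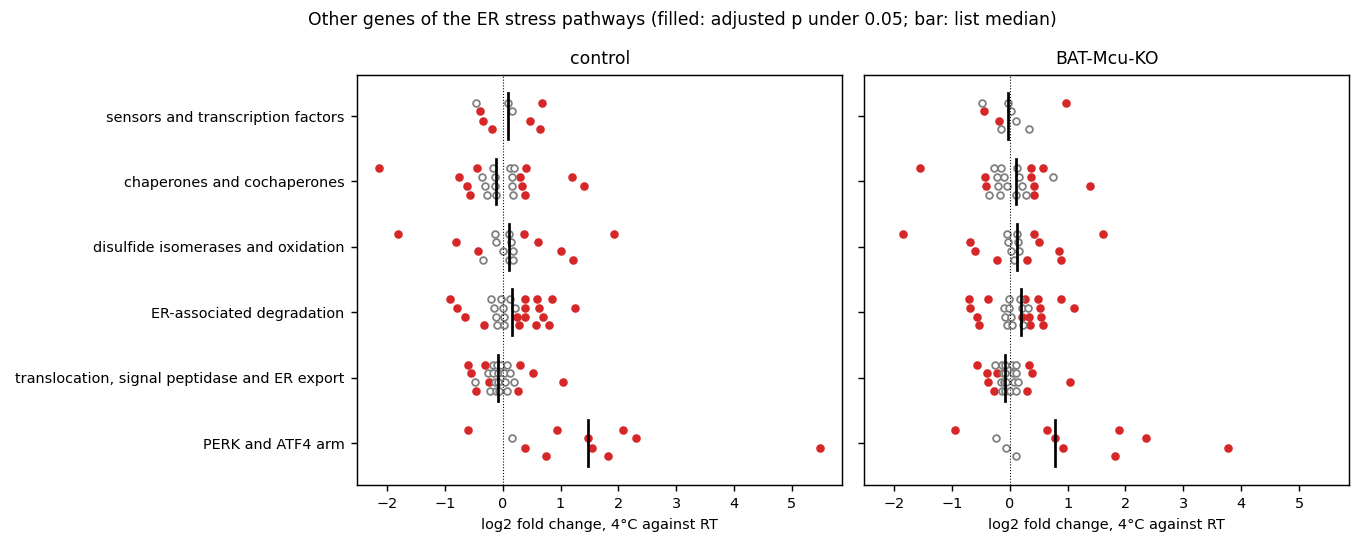
Log2 fold change of 4°C against RT (horizontal axis) for each measured gene of 6 lists of ER stress genes other than the 10 members (vertical axis), in control (left) and BAT-Mcu-KO mice (right); filled points have an adjusted p under 0.05 and bars mark list medians. The PERK and ATF4 list has medians of 1.48 and 0.78, and the medians of the other lists lie between -0.11 and 0.19.

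Genes with an exact ERSE in the window moved in both directions in the cold. In control mice 6 of the 16 measured genes with the element were higher and 5 lower at 4°C (median log2 fold change 0.18), and without the 3 members 4 of 13 were higher and 5 lower (median 0.03). Among all 9982 measured genes with a promoter window, 24.5% were higher and 25.2% lower (median -0.02). In BAT-Mcu-KO mice 6 of 16 were higher and 3 lower (median 0.02), and without the 3 members 3 of 13 were higher and 3 lower (median -0.17), where 23.2% and 23.3% of genes with a window were higher and lower. These are counts without a test. The called genes with the largest rise in control mice were Adcy3, an adenylyl cyclase (2.54), Hspa5 (0.78) and Hnrnpa3, an RNA-binding protein (0.60). Those with the largest fall were Calr4, a calreticulin relative (-2.36), Xlr3b (-1.49) and Pdia6 (-0.80).

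Members differed from one another in how they followed the 23 mice. Likeness was measured as the root mean square difference of centred log2 values over all 23 mice, where 0 is an identical pattern. The measure is not scaled by spread, so genes that vary little lie close together whether or not they vary together. Uneven genes lie farther from others. Of the member pairs, Hsp90b1 and Calr were the closest (0.19), followed by Hspa5 with Atf6 (0.29) and with Hsp90b1 (0.29). Over the 9530 genes with a mean of at least 50 normalized counts, those nearest to Hspa5 were 1700123O20Rik (0.13), Rbm18 (0.13), Rab1 (0.14), Rpl7l1 (0.15) and Prkar1a (0.15). Genes near to Ern1 included Suco (0.32), 2410131K14Rik (0.32), Arl15 (0.32) and Pank1 (0.33), at larger distances than the genes nearest to Hspa5.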

How the data were processed

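RNA of frozen brown fat was made into Smart-seq2 libraries and sequenced as paired 25-base reads. The authors aligned reads with STAR 2.4.0j to mm10 (GENCODE M7), counted unique exonic reads irrespective of strand with HTSeq, dropped genes that did not reach 8 reads in 6 or more samples, and deposited counts divided by DESeq2 size factors as a normalized signal. These scaled counts gave whole reads for 100% of values (tolerance 0.05). A second deposited table, of the authors' own comparisons (fold changes and p-values), was not used. Groups were taken from sample titles.

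log2(normalized count + 1) of 14651 genes was fitted with limma 3.58.1 (R 4.3.3; 4 group means, 23 samples, variance trend), with Benjamini-Hochberg adjustment over all genes and a threshold of 0.05. Scripts were tested on simulated data. Alternatives were pseudocounts of 0.5 and 10, filters on low values, other scalings, edgeR 4.0.16 and DESeq2 1.42.0 on recovered reads, a replicate block and leaving out each mouse. Each sample is 1 mouse, so p-values measure the spread between mice. Within a group, pairs of libraries differed beyond sampling noise.

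Members and lists were chosen with earlier results of these data known. Named were the members, Mcu, Ucp1, Eif2ak3, Atf4 and Ddit3, for each list the 3 genes with the smallest p called in each direction by cold in control mice, list genes called by genotype, the 5 genes nearest to Hspa5 and Ern1, and the 3 ERSE genes with the largest rise and fall. Gene positions and exon lengths are from GENCODE M21 (GRCm38), the same assembly as mm10 in a later annotation. Protein endings were not analysed here, and 1 gene that the rule names near Ern1 is not reported here.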

Additional observations from a re-analysis of the deposited data

Results flagged for a closer look

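Of 40 sets of values tested (10 genes in 4 groups), 1 held a mouse apart from its group by Dixon's criterion, where chance alone marks about 1 in 20 sets. Ern1 reached 358 normalized counts in Ctrl 4°C mouse 1, and the nearest of the other 4 mice had 168. The gap was 0.734 of the group's range, against a critical value of 0.71. This library was also the shallowest (7129271 reads) and had the highest Dnajb9 of its group (4830). In BAT-Mcu-KO 4°C mice, Ern1 was likewise uneven, from 128 to 367.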

How the results depend on the processing

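Called members numbered 5 to 7 in control and 7 to 9 in BAT-Mcu-KO mice under all alternatives run, and 0 for genotype and interaction throughout. Sdf2l1, Atf6, Dnajb9, Hspa5 and Pdia4 kept direction and call under each that tested them. Genotype at 4°C lost its 1 called gene of the other lists (0 called) in the fit of the compared groups alone and with the replicate block, where Atf4 had an adjusted p of 0.058. Correlations of deviations between same-numbered mice ran from -0.204 to 0.0652 in the cold comparisons and genotype at RT. There these correlations over all genes gave no sign that replicate numbers pair mice. They cannot exclude a pairing that acts on fewer genes, so a call lost under the block is given as a limit. For genotype at 4°C the 5 correlations ran from 0.0416 to 0.218 (mean 0.121). Whether numbers pair mice there is not settled, so the lost Atf4 call stands as a limit. With the block Tmbim6 lost its calls and Dnajb11 was called in BAT-Mcu-KO mice (limma adjusted p = 0.0041). Counting ERSE-II as well widened the set from 16 to 24 genes. In BAT-Mcu-KO mice the higher genes then went from 6 to 9 (37.5% in each set). The lower genes went from 3 to 5 (18.75% and 20.83%). Counts over all genes moved by over 1.5 times for genotype at RT (7, with 3 for compared groups and 20 in DESeq2), at 4°C (11, with 7 without the trend, 2 for compared groups, 6 in edgeR, 23 in DESeq2 and 3 to 16 on leaving out a mouse, with 3 without Ctrl 4°C mouse 2, 7 without Ctrl 4°C mouse 5 and 6 without BAT-Mcu-KO 4°C mouse 4) and the interaction (0, with 28 in DESeq2 and 1 without Ctrl 4°C mouse 1). Scaling to the 75th percentile moved the median of all genes in the control cold comparison to -0.13, with 38.2% of calls higher. Uncalled log2 values turned sign for Herpud1 in the control cold comparison (0.00808 with the replicate block) and for Prdx4 in the BAT-Mcu-KO one (-0.0064 with quantile scaling, -0.038 with the 75th percentile, -0.0041 in edgeR). On leaving out a mouse, ranges that crossed 0 were -0.1941 to 0.00808 for Herpud1 and -0.2913 to 0.135 for Xbp1 (control cold), -0.0349 to 0.07403 for Prdx4 (BAT-Mcu-KO cold), -0.06119 to 0.03269 for Dnajb9 and -0.08353 to 0.04679 for Pdia4 (genotype at RT), -0.0203 to 0.182 for Sdf2l1 (genotype at 4°C) and -0.0123 to 0.1118 for Hspa5 (interaction). The cause was not tested. The comparison by KDEL-type protein endings was not run, since no protein table was used here.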

Other observations

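Irf4, a transcription factor used by B cells and by cold-exposed brown adipocytes, was looked at beside Ern1 after the values of both had been seen. In Ctrl 4°C mice the mouse with the highest Ern1 (358 normalized counts) also had the highest Irf4 (5917), and the other 4 mice had 856 to 3661. The mouse with the next highest Ern1 (168) had the lowest Irf4 (856). In BAT-Mcu-KO 4°C mice the 2 mice with the highest Ern1 (367 and 309) had 7836 and 14344 for Irf4, where the others had 2055 to 5297. At RT the highest Irf4 of each genotype did not go with a high Ern1: it was 1146 in a Ctrl mouse with 95.7 for Ern1 and 1404 in a BAT-Mcu-KO mouse with 84.5. Irf4 rose at 4°C with a log2 fold change of 1.80 in control mice and 2.75 in BAT-Mcu-KO mice (limma adjusted p = 0.0026 and 1.7e-05). Of 10 B and plasma cell genes listed, 5 were measured, and Cd79a was at 0 in at least 1 mouse. Irf4 was the 1 gene of these called higher at 4°C in each genotype, with 1 lower in control and 2 lower in BAT-Mcu-KO mice. Ighm was lower (-1.20, limma adjusted p = 0.0059, and -1.73, adjusted p = 1.3e-04), and Jchain was near 0 change (-0.01 and 0.08). The relation of Ern1 to Irf4 was not tested.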
